A study of Mus musculus with 4 samples.

Results

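The heat shock proteins and chaperonins are the main families of proteins that fold other proteins. Their genes were picked by name from the deposited expression table: the HSP90 genes, the HSP70 and HSP110 genes (Hspa and Hsph1), the small heat shock protein genes (Hspb), the mitochondrial chaperonin pair Hspd1 and Hspe1, the J protein genes (Dnaja, Dnajb and Dnajc), and the genes of the cytosolic chaperonin TRiC (Cct2 to Cct8 and Tcp1). The rule found 79 of the 52327 gene names in the table. It uses names and no measured value, but it was chosen with earlier results of these data known. RNA sequencing compared 2 groups of mouse 46C cells, an embryonic stem cell line. The ESCs, kept in 2i medium, were the control group, and the rfISCs, kept in PIF medium, are described by the labels as stem cells intermediate between the rosette and the formative state. Each group had 2 libraries of total RNA, all from 1 cell line, and the labels name no other allele or agent.

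Chaperones bind unfolded stretches of other proteins and release them to fold. HSP70 proteins do this with ATP, J proteins deliver clients to HSP70 and trigger its ATPase, HSP110 proteins exchange its nucleotide, and HSP90 acts later on clients such as kinases and receptors. Small heat shock proteins hold unfolding proteins without ATP, and chaperonins enclose a client in a chamber. Some of these genes are transcribed at all times, while others rise under heat shock factor 1, which binds inverted repeats of GAA known as heat shock elements.

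The estimated counts added up to 19243701 and 21517544 for ESCs, against 21499590 and 23780989 for rfISCs. The 5 naive pluripotency markers listed were all lower in rfISCs and the 5 rosette and formative markers were all higher. Of the 3 pluripotency markers listed as shared between states, Sall4 was higher and Pou5f1 and Sox2 were lower. Pou5f1 stood at 1080.55 and 1055.73 CPM (counts scaled to a common library size) in ESCs, against 540.896 and 550.666 CPM in rfISCs. All 5 neural markers were also higher in rfISCs, with a median log2 fold change of 4.10. Their summed level, which the most abundant of them weigh on most, went from 128 to 159 CPM in ESCs to 261 to 263 CPM in rfISCs. The summed fibroblast or feeder markers ran from 5.29 to 8.25 CPM in ESCs and from 13.5 to 14.5 CPM in rfISCs, with 3 of the 4 tested higher. Of the primitive endoderm markers Gata4 and Dab2 were higher and Gata6 and Sox17 were too low to test. Among the primitive streak markers Eomes was lower, and T, Mixl1 and Mesp1 were not tested. The calls of Gata4 and Eomes were both lost with DESeq2, a second test on counts (adjusted p = 0.0897 and 0.0559). Gata3 was higher and the trophoblast markers Cdx2, Elf5 and Hand1 were too low to test. The part of other cell types in the results was not tested, and in bulk RNA fewer cells of a type and less RNA per cell cannot be told apart.

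Promoter sequences are shown first, for 6 genes whose windows hold a motif searched for. Hsp90aa1 and Hspa9 are not among the genes matched in the table. RefSeq windows on build GRCm38.p6, from 250 bases before to 50 bases after each start site, matched 65 of the 79 genes by symbol. The heat shock element was searched on both strands as GAANNTTC, and in a longer form that adds 1 more inverted unit on either side and so contains the shorter one. Stretches are printed along the gene's strand, 5′ to 3′, with the matches in capitals. The first 4 stretches come from the paired heat-inducible HSP70 genes, a small heat shock protein gene that fell and a mitochondrial chaperonin gene.

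Hspa1a (chr17:34972213-34972300, minus strand): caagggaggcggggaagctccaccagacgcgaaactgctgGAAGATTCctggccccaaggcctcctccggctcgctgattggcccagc
Hspa1b (chr17:34959295-34959382, minus strand): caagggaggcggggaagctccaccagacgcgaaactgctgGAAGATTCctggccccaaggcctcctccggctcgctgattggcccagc
Hspb1 (chr5:135887762-135887869, plus strand): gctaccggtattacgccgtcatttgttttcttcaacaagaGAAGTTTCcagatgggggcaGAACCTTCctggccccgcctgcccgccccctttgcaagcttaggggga
Hspe1 (chr1:55088019-55088116, plus strand): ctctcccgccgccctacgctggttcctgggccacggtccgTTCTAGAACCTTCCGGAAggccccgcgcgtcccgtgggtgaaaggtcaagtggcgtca

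The Hspa1a and Hspa1b windows differed at 4 of 300 bases. The Hspd1 and Hspe1 genes lie head to head, and their windows share 285 bases, so that both hold the same element. A search on both strands for the ER stress response element, CCAAT and CCACG held 9 bases apart, was added after the values were seen. It matched Hspa5, Hsp90b1 and Dnajc3, and the first of these, which rose, and Hsp90b1 are shown.

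Hspa5 (chr2:34771985-34772083, plus strand): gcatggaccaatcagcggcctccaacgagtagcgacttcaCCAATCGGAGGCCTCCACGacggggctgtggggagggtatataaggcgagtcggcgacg
Hsp90b1 (chr10:86705493-86705694, minus strand): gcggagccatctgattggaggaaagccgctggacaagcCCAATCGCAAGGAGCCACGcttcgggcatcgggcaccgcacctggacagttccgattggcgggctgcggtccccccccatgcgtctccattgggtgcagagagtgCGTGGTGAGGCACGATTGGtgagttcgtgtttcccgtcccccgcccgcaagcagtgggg

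The shorter heat shock element was present in 14 of the 65 matched genes (21.5%) and in 9.04% of 27025 gene symbols with a window. A gene counted when any of its windows held a match, and Hspd1 and Hspe1, which share the element, were counted separately. It was found in 5 of 16 genes that were higher in rfISCs, in 5 of 15 that were lower and in 3 of 28 that did not pass the test. Genes of opposite direction therefore carried it: Hspa1a, Hspa1b, Hsph1, Dnaja1 and Dnaja4 were higher, while Hspb1, Hspb6, Hspb8, Dnajb6 and Cct2 were lower. The longer form was present in Hsph1, Dnajb6, Hspd1 and Hspe1 (6.15% of matched genes against 0.662% of all symbols). The ER stress response element was present in 4.62% of matched genes against 0.137% of all symbols. A match describes these letters alone, and the binding of any factor was not measured.

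In the whole comparison 73 of the 79 genes had enough counts to test. By edgeR's quasi-likelihood test on all genes, at an adjusted p under 0.05, 17 of them were higher in rfISCs, 19 were lower and 37 did not pass. The 36 called genes are 49.3% of those tested, beside 53.7% of all 16355 genes tested, so the share called was close to the background. Over all genes 27.3% were called higher and 26.4% lower. The changes were small in this family: the median size of the log2 fold change was 0.17, beside 0.43 over all genes. Neither this comparison nor the next was matched for expression level. Called changes of at least 2-fold were found in 11 of the 73 genes (15.1%), beside 22.0% of all genes. Of these 11, Hspa12b, Hspa1b, Hspa12a, Hspa1a, Dnajb5, Hspa4l and Dnaja4 were higher, and Hspb6, Dnajb13, Dnajc6 and Hspb1 were lower. The CPM values of the 2 groups did not overlap in 54 of the 73 genes, beside 77.7% of all genes.

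The 6 genes that were not tested had few reads. Dnajb8 and Hspb3 had 0 counts in every library. Cct6b, a testis copy of a TRiC subunit, had 4 and 3 counts in ESCs and 5 and 8 in rfISCs, and Dnajb7 had 1 to 4 counts per library. Hspb7 had 8 and 17 counts in ESCs and 0 in both rfISCs libraries, which makes it 9.85-fold lower with the empty group set to a floor of 3 counts. This value allows for no error in the ESCs counts. Hspb9 had 10 counts in 1 ESCs library and 0 in the other 3 libraries.

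The balance of higher and lower calls depended on the scaling. With TMM scaling 47.2% of the called genes of the family were higher. With library totals 24 genes were higher and 13 lower (64.9%), and with limma on log2(TPM + 1), where TPM is a transcript level scaled for length and for the library total, 26 were higher and 13 lower (66.7%). Over all genes the same shares were 50.9%, 59.2% and 66.4%, and the median log2 fold change of all genes was 0.00 with TMM scaling, 0.08 with library totals and 0.15 with TPM. Without rfISCs replicate 2 the genes called higher numbered 10 in place of 17. Under all 13 alternative settings 8 genes stayed higher (Dnaja1, Dnajb5, Dnajc9, Hspa12a, Hspa12b, Hspa1b, Hspa5 and Hsph1) and 8 stayed lower (Dnajb13, Dnajc13, Dnajc6, Dnajc7, Hsp90aa1, Hspa9, Hspb6 and Hspb8).

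**Figure D1:**
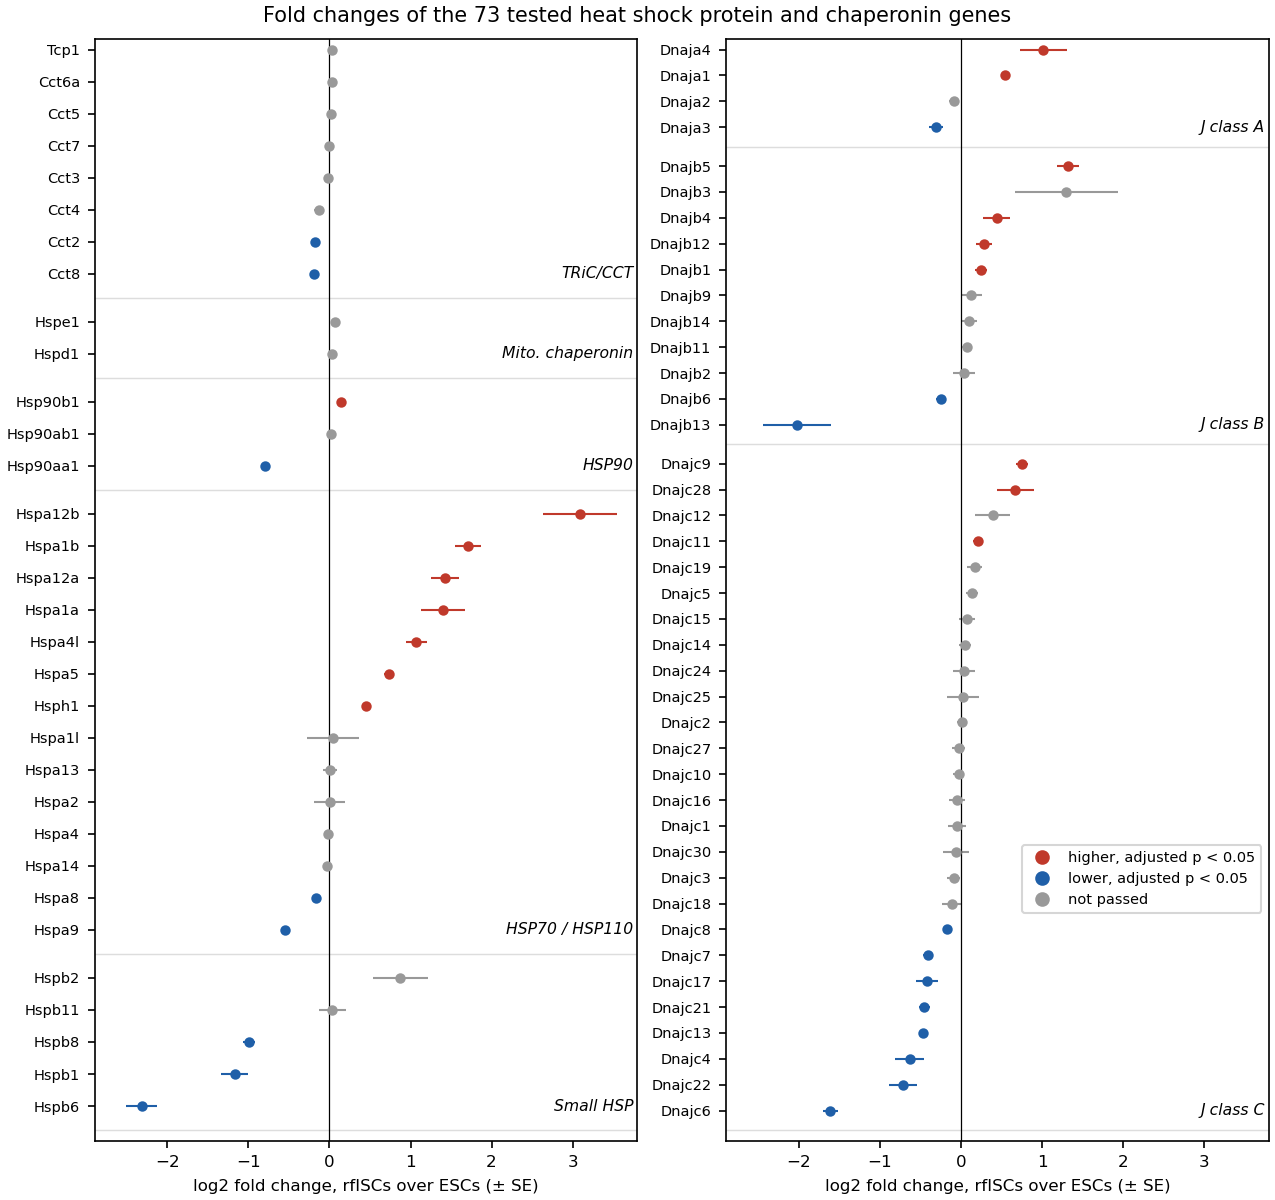
The log2 fold change of rfISCs over ESCs is plotted for each of the 73 tested genes, grouped by family, with the standard error as a bar and the colour giving the call by edgeR's quasi-likelihood test. Most TRiC subunits sit close to 0, while HSP70 genes run from -0.55 for Hspa9 to 3.09 for Hspa12b.

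The cytosolic HSP90 pair separated. Hsp90aa1, the stress-inducible form, stood at 4221 and 4158 CPM in ESCs, against 2355 and 2465 CPM in rfISCs, so both rfISCs libraries were lower. It fell by 0.80 on the log2 scale (SE 0.04, adjusted p = 2.47e-07, edgeR's quasi-likelihood test), from 4190 ± 44.9 to 2410 ± 77.8 CPM (SD, n = 2). Hsp90ab1, the constitutive form, had the highest mean TPM of the family. It stood at 6135 and 5965 CPM in ESCs, against 6104 and 6137 CPM in rfISCs, and the groups overlapped. Its log2 fold change was 0.02 (SE 0.03, adjusted p = 0.672) with TMM scaling, 0.10 with library totals (adjusted p = 0.0163) and 0.19 on the TPM scale (adjusted p = 0.0166). The ratio of Hsp90ab1 to Hsp90aa1 in TPM, a scale per transcript length, was 1.85 and 1.80 in ESCs and 3.34 and 3.24 in rfISCs.

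Hsp90b1, the HSP90 of the endoplasmic reticulum (ER) whose promoter holds 2 matches to the ER stress response element, stood at 713 and 724 CPM in ESCs, against 775 and 811 CPM in rfISCs. It rose by 0.14 on the log2 scale (SE 0.04, adjusted p = 0.0228). The call was lost without rfISCs replicate 1 (adjusted p = 0.0549), without rfISCs replicate 2 (adjusted p = 0.249) and on Ensembl transcripts alone (adjusted p = 0.0576).

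**Figure D2:**
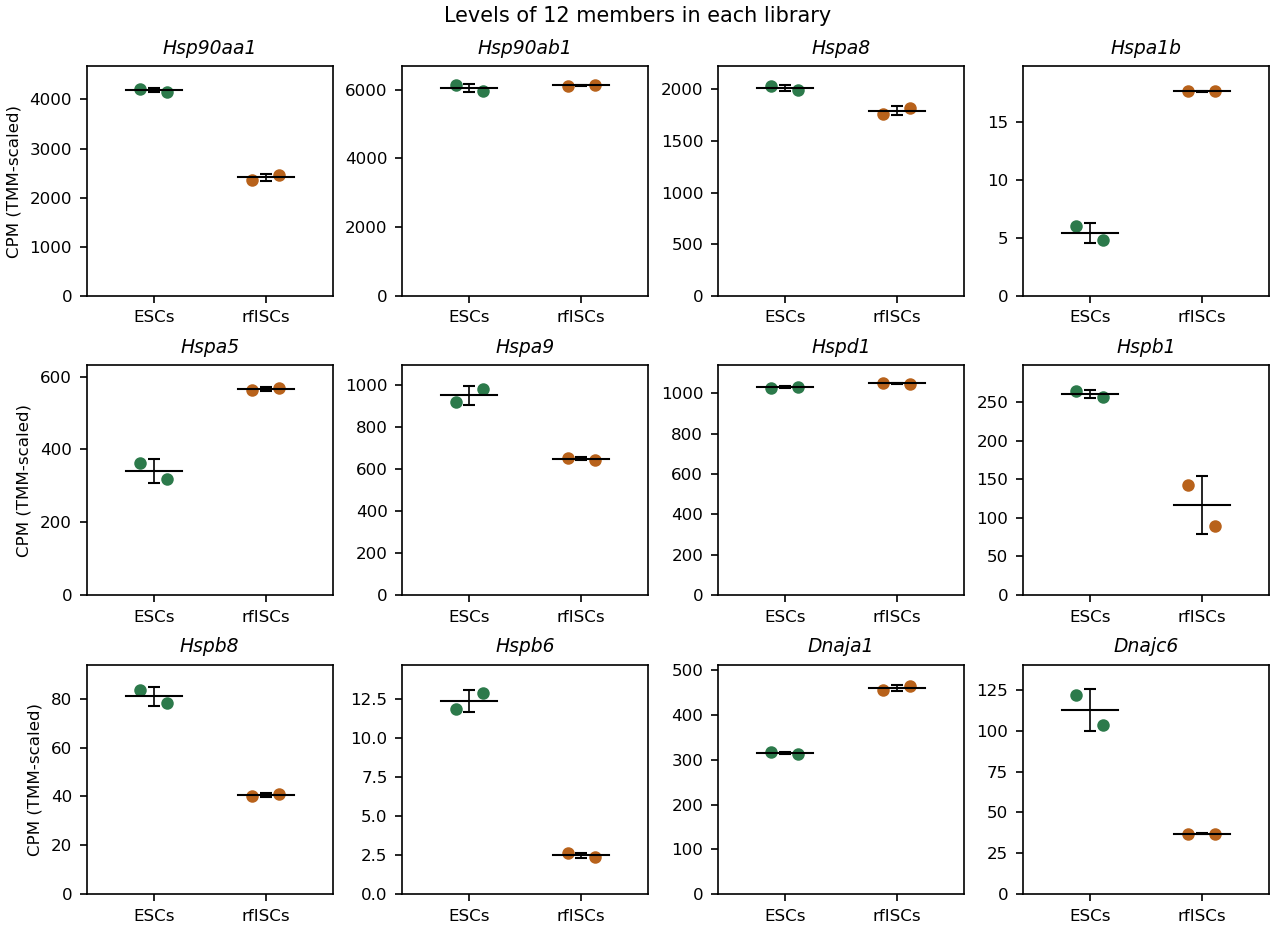
Levels of 12 genes are plotted in TMM-scaled CPM on axes that start at 0, with a point per library, a line at the mean of 2 libraries and a bar for the SD. Hsp90aa1 was lower in both rfISCs libraries while Hsp90ab1 overlapped, and Hspa5 and Hspa9 moved in opposite directions.

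Among the HSP70 genes of the cytosol and nucleus, the inducible pair rose at a low level. Hspa1b stood at 6.05 and 4.80 CPM in ESCs, against 17.7 CPM in each rfISCs library, a log2 fold change of 1.71 (SE 0.16, adjusted p = 2.48e-05). Hspa1a stood at 2.51 and 1.75 CPM in ESCs, against 5.12 and 6.05 CPM in rfISCs, a log2 fold change of 1.40 (SE 0.27, adjusted p = 0.00197). Limma on log2(TPM + 1) without a filter did not call Hspa1a (adjusted p = 0.0519). Hspa1a and Hspa1b are near-identical copies whose reads the counting could split, so their sum is the safer value. It was 157 and 135 counts in ESCs and 500 and 573 in rfISCs. Both rfISCs libraries were above both ESCs libraries.

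Hspa8, the constitutive HSP70 of the cytosol, was the second most abundant gene of the family by TPM. It stood at 2034 and 1994 CPM in ESCs, against 1762 and 1821 CPM in rfISCs, a fall of 0.17 on the log2 scale (SE 0.04, adjusted p = 0.00450). The call was lost with library totals (adjusted p = 0.0800) and without rfISCs replicate 1 (adjusted p = 0.0765), and on the TPM scale the log2 fold change was 0.01. Hspa14, which works at the ribosome, had a log2 fold change of -0.03 (adjusted p = 0.736). Hspa1l and Hspa2, both known for their expression in testis, had log2 fold changes of 0.04 and 0.00 and did not pass.

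The organelle HSP70 genes moved in opposite directions. Hspa5, which encodes BiP, the HSP70 of the ER, stood at 363 and 318 CPM in ESCs, against 562 and 570 CPM in rfISCs, a rise of 0.73 on the log2 scale (SE 0.06, adjusted p = 1.39e-05). Hspa9, which encodes mortalin, the HSP70 of the mitochondrial matrix, stood at 917 and 980 CPM in ESCs, against 653 and 644 CPM in rfISCs. It fell by 0.55 on the log2 scale (SE 0.05, adjusted p = 1.26e-05). The groups did not overlap for either gene. Hspa13, a microsomal HSP70, had a log2 fold change of 0.01 (adjusted p = 0.952). The TPM ratio of Hspa8 to Hspa5 was 11.4 and 12.3 in ESCs and 6.15 and 6.37 in rfISCs.

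Of the HSP110 genes, 2 of 3 rose. Hsph1 stood at 183 and 177 CPM in ESCs, against 247 and 244 CPM in rfISCs, a log2 fold change of 0.45 (SE 0.05, adjusted p = 0.000101). Hspa4l stood at 9.26 and 10.4 CPM in ESCs, against 21.2 and 20.2 CPM in rfISCs, a log2 fold change of 1.07 (SE 0.13, adjusted p = 0.000118), and limma on log2(TPM + 1) did not call it (adjusted p = 0.0692). Hspa4, the most abundant of the 3 in CPM and in TPM, had a log2 fold change of -0.02 (adjusted p = 0.749).

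The distant HSP70 relatives rose from low levels. Hspa12a stood at 5.18 and 6.45 CPM in ESCs, against 16.4 and 15.0 CPM in rfISCs, a log2 fold change of 1.42 (SE 0.17, adjusted p = 9.57e-05). Hspa12b, known from endothelial cells, had 4 and 9 counts in ESCs and 69 and 63 in rfISCs. Its log2 fold change of 3.09 (SE 0.46, adjusted p = 0.000410) was the largest rise of the 73 genes, and it was 3.69 without ESCs replicate 2.

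Of the small heat shock protein genes, 3 of the 5 tested fell and none rose with TMM scaling (60.0% called, beside 53.7% of all genes). Hspb1, which encodes HSP25, stood at 265 and 258 CPM in ESCs, against 143 and 89.7 CPM in rfISCs. Its rfISCs libraries were both lower but lay far apart, and the log2 fold change was -1.17 (SE 0.17, adjusted p = 0.000302). The Hspb1 call was lost with limma on log2(TPM + 1) without a filter (adjusted p = 0.0645). Hspb8, a partner of the co-chaperone Bag3, stood at 83.6 and 78.3 CPM in ESCs, against 40.01 and 41.08 CPM in rfISCs, a log2 fold change of -0.997 (SE 0.08, adjusted p = 5.54e-06). Hspb6 had 218 and 265 counts in ESCs and 57 in each rfISCs library, and its log2 fold change of -2.32 (SE 0.19, adjusted p = 9.14e-06) was the largest fall of the 73 tested genes.

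Hspb2 had a log2 fold change of 0.87 (SE 0.34) and did not pass (adjusted p = 0.0540), but it passed with library totals (adjusted p = 0.0382). Hspb11, which is also a subunit of the intraflagellar transport machinery, had a log2 fold change of 0.03 (adjusted p = 0.881). Without ESCs replicate 1, rfISCs replicate 1 or rfISCs replicate 2 Hspb7 also entered the test and 4 genes were called lower.

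TRiC is a double ring of 8 kinds of subunit that folds actin and tubulin. None of the 8 subunit genes was called higher and 2 were called lower with TMM scaling, and the median log2 fold change was -0.01. Cct8 stood at 638 and 668 CPM in ESCs, against 570 and 569 CPM in rfISCs, a log2 fold change of -0.20 (SE 0.05, adjusted p = 0.00554). Cct2 stood at 611 and 650 CPM in ESCs, against 560 and 551 CPM in rfISCs, a log2 fold change of -0.18 (SE 0.05, adjusted p = 0.0108). Without rfISCs replicate 1 neither was called (adjusted p = 0.0514 and 0.0607), and without rfISCs replicate 2 the Cct2 call was lost (adjusted p = 0.0901). The direction for this complex turned with the scaling: library totals gave 1 subunit higher and 0 lower, and limma on log2(TPM + 1) gave 5 higher and 0 lower.

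The other subunits had log2 fold changes of -0.13 for Cct4, -0.02 for Cct3, -0.01 for Cct7, 0.01 for Cct5, 0.03 for Cct6a and 0.04 for Tcp1. None of these passed with TMM scaling. Levels of the subunits were close to each other: the highest subunit was 1.47, 1.49, 1.48 and 1.46 times the lowest in TPM in the 4 libraries. Cct4 was lowest in 3 libraries and Cct6a in ESCs replicate 2.

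**Figure D3:**
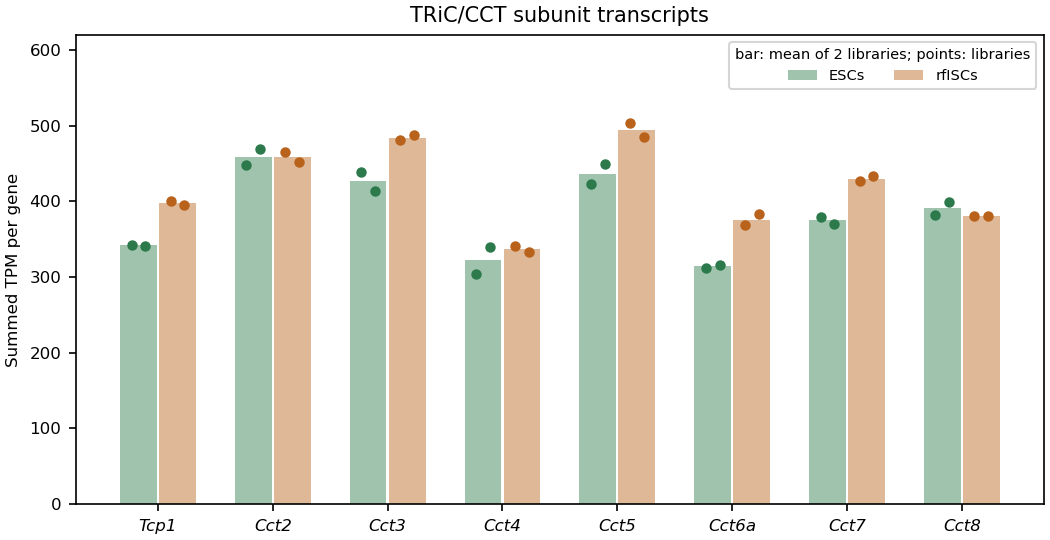
TPM summed per gene is plotted for the 8 TRiC subunits, with a bar at the mean of 2 libraries and a point per library. The subunits lie between 304 and 504 TPM, and on this scale Tcp1, Cct3, Cct5, Cct6a and Cct7 are higher in rfISCs, which does not hold with TMM scaling.

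The mitochondrial chaperonin genes stayed close to their ESCs level with TMM scaling. Hspd1, which encodes HSP60, stood at 1027 and 1033 CPM in ESCs, against 1051 and 1047 CPM in rfISCs, a log2 fold change of 0.03 (SE 0.04, adjusted p = 0.609). Hspe1, which encodes its lid HSP10, had a log2 fold change of 0.07 (SE 0.06, adjusted p = 0.312). Both were called higher with library totals (adjusted p = 0.0386 and 0.0438) and with limma on log2(TPM + 1) (adjusted p = 0.0218 and 0.0300). The TPM ratio of Hspd1 to Hspe1 ran from 1.03 to 1.12 over the 4 libraries.

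J proteins are classed by the domains beside their J domain. The share of tested genes called was 75.0% in class A, 54.5% in class B and 42.3% in class C, beside 53.7% of all genes. In class A, 2 of 4 genes rose and 1 fell. Dnaja1, a partner of HSP70 in the cytosol, stood at 317 and 313 CPM in ESCs, against 455 and 465 CPM in rfISCs, a log2 fold change of 0.54 (SE 0.05, adjusted p = 1.40e-05). Dnaja4 rose by 1.02 on the log2 scale from 2.18 ± 0.614 to 4.39 ± 0.402 CPM (SD, n = 2, adjusted p = 0.0147 by edgeR), and was not called without rfISCs replicate 2 (adjusted p = 0.0866). Dnaja3, a mitochondrial J protein and partner of mortalin, fell by 0.31 on the log2 scale (SE 0.09, adjusted p = 0.0129). Without rfISCs replicate 2 its log2 fold change was -0.20 (adjusted p = 0.175), and it was also lost with library totals (adjusted p = 0.0510), with TPM and on Ensembl transcripts alone.

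In class B, 4 of 11 tested genes rose and 2 fell. Dnajb5 stood at 14.7 and 11.5 CPM in ESCs, against 34.2 and 31.1 CPM in rfISCs, a log2 fold change of 1.32 (SE 0.13, adjusted p = 3.54e-05). Dnajb1, which encodes HSP40, the heat-inducible J protein of the cytosol, stood at 61.8 and 58.2 CPM in ESCs, against 68.4 and 74.0 CPM in rfISCs. Its log2 fold change was 0.25 (SE 0.08, adjusted p = 0.0220), and the call was lost without rfISCs replicate 2 (adjusted p = 0.230) and on Ensembl transcripts alone (adjusted p = 0.0731). Dnajb12, an ER membrane J protein, had a log2 fold change of 0.28 (adjusted p = 0.0384), which was 0.19 without ESCs replicate 2 (adjusted p = 0.156) and was not called without rfISCs replicate 1 (adjusted p = 0.205) or rfISCs replicate 2 (adjusted p = 0.0667).

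Dnajb4 lay at the threshold (log2 fold change 0.44, adjusted p = 0.04999) and was not called when any 1 library was left out (adjusted p from 0.0738 to 0.237). Dnajb13, a gene of the axoneme, had 41 and 74 counts in ESCs and 13 and 20 in rfISCs, a log2 fold change of -2.02 (SE 0.42, adjusted p = 0.00286). Dnajb6, which holds back protein aggregation, had a log2 fold change of -0.25 (SE 0.06, adjusted p = 0.00558). It was not called without rfISCs replicate 1 (log2 fold change -0.22). With limma on log2(TPM + 1) its log2 fold change was -0.07 (adjusted p = 0.385), and the other limma fits did not call it either. The class B genes called higher numbered 2 without ESCs replicate 2 or rfISCs replicate 1 and 1 without rfISCs replicate 2.

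In class C, the most varied class, 3 of 26 genes rose and 8 fell. Dnajc6, which encodes auxilin, the J protein that uncoats clathrin vesicles, stood at 122 and 104 CPM in ESCs, against 37.1 and 36.7 CPM in rfISCs. Its log2 fold change was -1.61 (SE 0.09, adjusted p = 8.00e-07). Dnajc13, an endosomal J protein, fell by 0.47 on the log2 scale (SE 0.06, adjusted p = 0.000111). Dnajc21, which acts in ribosome assembly, fell by 0.45 (SE 0.07, adjusted p = 0.000427), and Dnajc7, which binds both HSP70 and HSP90, fell by 0.41 (SE 0.05, adjusted p = 0.000142). Limma on log2(TPM + 1) without a filter did not call Dnajc21 (adjusted p = 0.0672).

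Dnajc9, a histone chaperone, stood at 62.4 and 68.1 CPM in ESCs, against 113 and 108 CPM in rfISCs, a log2 fold change of 0.76 (SE 0.07, adjusted p = 2.39e-05). Dnajc11, a mitochondrial protein, had a log2 fold change of 0.21 (adjusted p = 0.0123) and was not called without rfISCs replicate 1 (adjusted p = 0.115) or replicate 2 (adjusted p = 0.0773). Dnajc8, a splicing factor, had a log2 fold change of -0.17 (adjusted p = 0.0243), and the call was lost without rfISCs replicate 1 (adjusted p = 0.182) or replicate 2 (adjusted p = 0.154). Dnajc17 had a log2 fold change of -0.42 (adjusted p = 0.0291) and was likewise not called without either rfISCs library (adjusted p = 0.0640 and 0.152). Of the low genes Dnajc28 was higher (0.67), and Dnajc22 (-0.71) and Dnajc4 (-0.63) were lower. Dnajc28 was not called without ESCs replicate 1 (adjusted p = 0.0642) or rfISCs replicate 2 (adjusted p = 0.260), nor Dnajc4 without rfISCs replicate 1 (adjusted p = 0.0684). Dnajc22 was not called on Ensembl transcripts alone (adjusted p = 0.147) or with limma without a filter (adjusted p = 0.0981). Without rfISCs replicate 1 class C had 2 higher and 5 lower, and without rfISCs replicate 2 it had 1 higher and 6 lower.

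By compartment, 1 of 9 ER J protein genes was called higher (Dnajb12) and 0 lower (11.1% called, beside 53.7% of all genes), while Hspa5 rose. The count higher was 0 without ESCs replicate 2, rfISCs replicate 1 or rfISCs replicate 2. Without ESCs replicate 1 it was 1, and 1 gene was lower (Dnajc3, log2 fold change -0.18, adjusted p = 0.0344). Dnajb9 and Dnajb11, both ER partners of BiP, had log2 fold changes of 0.13 and 0.07 and did not pass. Of the 7 mitochondrial J protein genes, 2 were higher (Dnajc28 and Dnajc11) and 2 lower (Dnajc4 and Dnaja3), or 57.1% called. Without rfISCs replicate 2 the mitochondrial counts were 0 higher and 1 lower, without rfISCs replicate 1 they were 1 and 1, and without ESCs replicate 1 they were 1 and 2. Of 10 genes listed as heat-inducible, 5 were higher (Hspa1b, Hspa1a, Dnaja1, Hsph1 and Dnajb1) and 3 lower (Hspb1, Hsp90aa1 and Hspa8), beside a share of 53.7% called among all genes. With library totals or TPM 7 were higher and 2 lower.

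Genes that work with these chaperones were read from lists that are not members. Hsf1, the main heat shock factor, stood at 28.9 and 28.7 CPM in ESCs, against 43.3 and 37.8 CPM in rfISCs, a log2 fold change of 0.49 (SE 0.10, adjusted p = 0.00215). Hsf2, a second heat shock factor, had a log2 fold change of -0.25 (SE 0.08, adjusted p = 0.0223). The Hsf2 call was lost with library totals (adjusted p = 0.0970), with DESeq2 (adjusted p = 0.0577), with all 3 limma fits (adjusted p from 0.142 to 0.158), and without ESCs replicate 1 (adjusted p = 0.0549), rfISCs replicate 1 (adjusted p = 0.160) or rfISCs replicate 2 (adjusted p = 0.0866). Of 30 co-chaperones of HSP90 and HSP70, 9 were higher and 7 lower, with a median log2 fold change of 0.06. The share called was 53.3%, beside 53.7% of all genes tested. Bag2 rose by 1.87 and Unc45a by 0.67 on the log2 scale, while Cdc37l1 had a log2 fold change of -0.69 and Sugt1 of -0.54. With TPM 16 were higher and 2 lower, and without rfISCs replicate 2 the counts were 6 and 3.

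Prefoldin hands clients to TRiC. Of 14 prefoldin and tubulin folding genes, 71.4% were called, beside 53.7% of all genes. Among them 6 were higher (Pfdn2 by 0.46 and Tbcb by 0.39 on the log2 scale) and 4 lower (Tbce at -0.49 and Uri1 at -0.44). Those higher numbered 3 without rfISCs replicate 1 and 2 without rfISCs replicate 2, and with TPM 5 were higher and 1 lower. Tbcb was not called without rfISCs replicate 2 (adjusted p = 0.0573), and Tbce was not called with TPM (adjusted p = 0.0981). Of 20 ER folding genes, 6 were higher and 6 lower (60.0% called, beside 53.7% of all genes). Hyou1, the nucleotide exchange factor of BiP, rose by 0.44 and Syvn1, a ubiquitin ligase of ER-associated degradation, by 0.68, while Herpud1, of the same degradation pathway, stood at -1.55 and the stress sensor Atf6 at -0.63. With TPM 8 of these were higher and 2 lower. With TMM scaling the counts were 3 higher and 3 lower without rfISCs replicate 1, 2 and 4 without rfISCs replicate 2, and 4 and 6 without ESCs replicate 2.

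Of 16 mitochondrial import and quality control genes, 0 were higher and 9 lower with TMM scaling, with a median log2 fold change of -0.21 beside 0.00 over all genes. The share called was 56.2%, beside 53.7% of all genes tested, and 26.4% of all genes were called lower. Hscb, the J protein of iron-sulfur cluster assembly, had a log2 fold change of -1.21 (adjusted p = 0.000845), and Grpel2, a nucleotide exchange factor of mortalin, of -0.44 (adjusted p = 0.000890), which limma on log2(TPM + 1) did not call (adjusted p = 0.0732). The lower genes numbered 6 with library totals, 5 without rfISCs replicate 1 and 3 without rfISCs replicate 2, and without ESCs replicate 1 Tomm40 was called higher. On the TPM scale 2 were higher and 1 lower. The share of counts from genes of the mitochondrial genome was 1.98% and 2.10% in ESCs and 1.39% and 1.53% in rfISCs, and its part in these values was not tested.

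**Figure D4:**
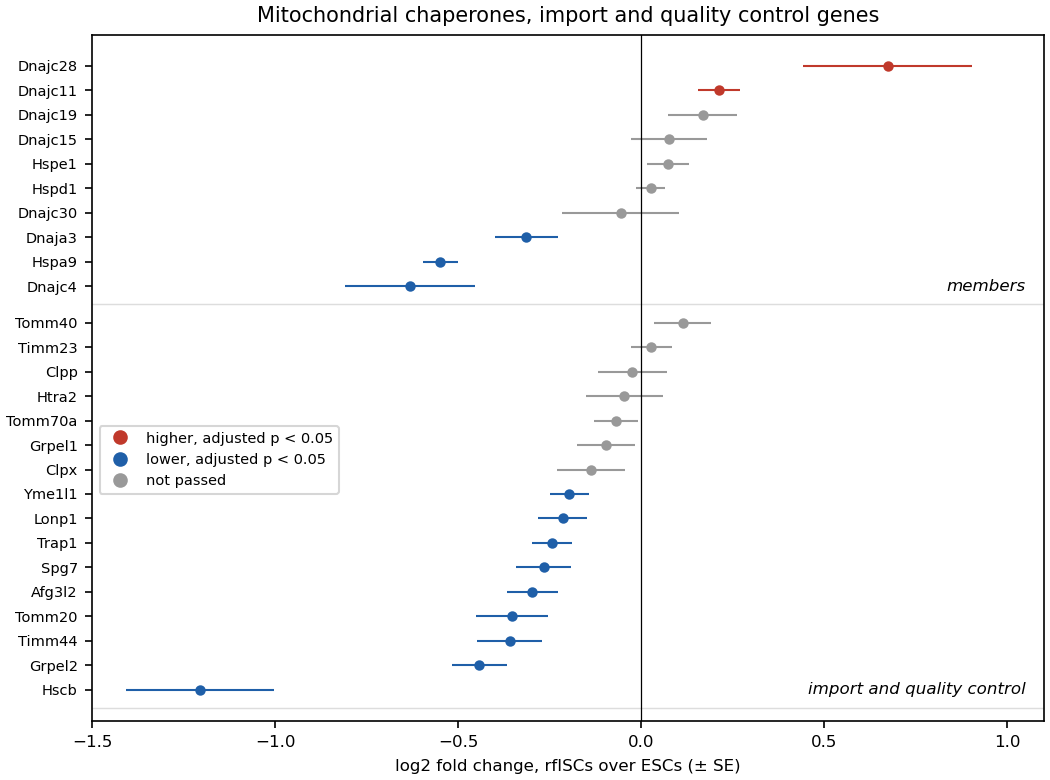
The log2 fold change of rfISCs over ESCs, with its standard error, is plotted for 10 mitochondrial chaperone genes of the family and for the 16 import and quality control genes, coloured by the call of edgeR's quasi-likelihood test with TMM scaling. Hspd1 and Hspe1 sit near 0, Hspa9 is at -0.55, and 9 of the 16 are called lower.

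Of 10 genes that respond to cell handling, 1 was higher (Junb, a log2 fold change of 1.44) and 4 were lower, among them Atf3 at -1.86 and Dusp1 at -1.29. Without ESCs replicate 1 Jun was called as well, which made 2 higher, and limma without a filter called 0 higher. Their part in the heat-inducible genes was not tested.

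The authors' deposited table tests each transcript by itself. It marks 12 transcripts of the family as significant, 5 up and 7 down, in 12 genes. That is 2.53% of the 475 transcripts of the family, beside 2.33% of all 160308 transcripts, so the share was close to the background. The mark does not follow the authors' adjusted p alone. An Hsp90aa1 transcript (log2 fold change -0.75, adjusted p = 2.1e-72 by the authors' test) and the Hspa1b transcript (1.76, 2.18e-11) are unmarked. The rule behind the mark is not given in the sources used here, but in this family the mark went with large changes. The smallest marked log2 fold change was 3.17, for Hspa12b. Among unmarked transcripts with an adjusted p under 0.05 by the authors' test, the largest change was -2.30, for Dnajc6. The gene calls differ from the mark, since they sum all transcripts of a gene and set no limit on the size of the change. The marked transcripts of Dnajb12 and Dnajc11 were down (log2 fold change -7.80 and -6.91), while both genes were called higher. Those of Dnajb5, Hspa12b, Hspa5, Dnaja3, Dnajc6 and Hspb6 went the way of their gene's call. Dnajc5, Dnajc25 and Hspa13 did not pass as genes, and Hspb7 was not tested. The family's share of all counts was 2.35% in both ESCs libraries, against 2.27% and 2.28% for rfISCs. Its summed level was 15133 and 14969 TPM in ESCs and 15524 and 15424 TPM in rfISCs, so the 2 scales differ in direction for the family as a whole.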

How the data were processed

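The data are 1 table in which each row is a transcript. Its values per library, as deposited by the authors, are estimated counts (expected counts that need not be whole) and TPM, and it also holds the authors' deposited fold change (a ratio and its log2) with p-values before and after adjustment, per the file headers. Bowtie 0.12.2 and mm9 are named in the submitters' processing notes without a role. The quantifier, assembler, annotation and the authors' test are not given in the sources used here. Strand use is not stated, so overlapping and antisense genes may share reads.

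Counts were summed per gene name and rounded. Transcripts with a blank gene name (1.22% to 1.62% of counts) were left out. Genes were kept by filterByExpr (minimum count 10), scaled by TMM and tested on all 4 libraries by edgeR 4.0.16 in R 4.3.3 (quasi-likelihood, group as the only term), with Benjamini-Hochberg adjustment over 16355 genes. The alternatives, run with DESeq2 1.42.0 and limma 3.58.1 among others, are in the closing section. On the TPM scale the test is limma on log2(TPM + 1), which understates changes of low genes. The script was tested on simulated data. Named genes were all tested TRiC, HSP and mitochondrial chaperonin members, plus J proteins with a mean of at least 10 CPM among the 6 largest called rises and falls or the 3 highest in TPM. Other J proteins with values were picked after their values were seen. The members and lists were chosen with earlier results of these data known. The labels do not say whether replicates were separate cultures, and the p-values describe only how far these libraries spread, which may be technical. An exact permutation test of 2 against 2 cannot go below p = 0.333. Counts differed between libraries of a group by more than sampling noise (chi-square per degree of freedom 6.71 and 4.55). Standard errors were worked back from the log2 fold change and the F value of edgeR's quasi-likelihood test. They therefore hold the spread between libraries as well as counting error. Floors cover the counting error of the empty group alone.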

Additional observations from a re-analysis of the deposited data

How the results depend on the processing

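All 73 tested genes were recomputed under 13 alternatives. Over these log2 fold changes 752 values kept direction and side of the threshold and 85 reversed in direction. Calls were lost 83 times and gained 43 times, some of them with a reversal, and the cause was not tested. With limma the genes called lower over the whole table were 2239 on log2(TPM + 1), 2182 on log2(TPM + 0.1) and 1734 without a filter, beside 4311 with TMM scaling. In the family limma called 26 genes higher with either pseudocount, beside 17, and 8 lower without a filter, beside 19. Leaving out 1 library at a time gave 10 to 17 members higher and 13 to 22 lower, and over all genes 3446 to 4791 higher and 3362 to 4493 lower; the 10 came without rfISCs replicate 2. With the replicate number as a block, 16 members were higher and 19 lower, and 4500 and 4322 of all genes. The block lost the call of Dnajb4 (adjusted p = 0.0603) and turned Hspa2 to -0.00658. The same-numbered libraries share only a number: their deviations from the group means correlated at 0.00144.

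The log2 fold changes that follow reversed. With library totals they were Cct3 at 0.0677, Cct7 at 0.0759, Dnajc1 at 0.0320, Dnajc10 at 0.0545, Dnajc16 at 0.0368, Dnajc27 at 0.0556, Dnajc30 at 0.0280, Hspa14 at 0.0585 and Hspa4 at 0.0664. With limma on log2(TPM + 1), with or without a filter, they were Cct3 at 0.183, Cct4 at 0.0663, Cct7 at 0.197, Dnaja2 at 0.253, Dnajc1 at 0.0278, Dnajc10 at 0.136, Dnajc16 at 0.0535, Dnajc18 at 0.163, Dnajc25 at -0.147, Dnajc27 at 0.137, Dnajc3 at 0.0572, Dnajc30 at 0.0796, Dnajc8 at 0.00193, Hspa14 at 0.137, Hspa4 at 0.0847 and Hspa8 at 0.00965. With log2(TPM + 0.1) they were Cct3 at 0.183, Cct4 at 0.0665, Cct7 at 0.197, Dnaja2 at 0.255, Dnajc1 at 0.0331, Dnajc10 at 0.139, Dnajc16 at 0.0606, Dnajc18 at 0.181, Dnajc25 at -0.190, Dnajc27 at 0.148, Dnajc3 at 0.0598, Dnajc30 at 0.0896, Dnajc8 at 0.00193, Hspa14 at 0.138, Hspa4 at 0.0851 and Hspa8 at 0.00965. On Ensembl transcripts alone they were Cct5 at -0.00188, Dnajc24 at -0.0506, Dnajc3 at 0.0188, Hspa13 at -0.00672 and Hspa2 at -0.0134. When 1 library was left out, the ranges that crossed 0 were -0.0414 to 0.00352 for Cct3, -0.0345 to 0.0563 for Cct5, -0.0729 to 0.140 for Dnajb2, -1.60e-05 to 0.248 for Dnajb9, -0.151 to 0.0450 for Dnajc1, -0.0166 to 0.124 for Dnajc14, -0.132 to 0.0373 for Dnajc16, -0.240 to 0.0177 for Dnajc18, -0.00600 to 0.0302 for Dnajc2, -0.00566 to 0.0717 for Dnajc24, -0.0188 to 0.0720 for Dnajc25, -0.183 to 0.00337 for Dnajc3, -0.00463 to 0.0336 for Hsp90ab1, -0.0205 to 0.0319 for Hspa13, -0.166 to 0.156 for Hspa2 and -0.117 to 0.204 for Hspb11. With 2 libraries a group, and 1 where a library is left out, the lone library is assumed to vary like the others, and genes under about 10 counts a library carry wide errors.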
